A study of Mus musculus with 6 samples.

Results

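The genes described here are axon growth effectors and regulators of tubulin: the growth cone proteins Gap43 and Basp1, the stathmins Stmn2 and Stmn4, the beta tubulins Tubb2b and Tubb6, the tubulin-binding protein gene Tppp3, and Sprr1a, Arg1 and Gadd45a, which are known from injured sensory neurons. They were chosen by symbol, and all 10 were found among the 24623 genes tested. L4/5 dorsal root ganglia (DRGs) were taken from male C57BL/6 mice, wild type and 8 to 12 weeks old, after 13 days of LBP or PBS by mouth. LBP is a polysaccharide extract of wolfberry, given at 100 mg/kg, and PBS is its saline vehicle. The mice of both groups had no nerve lesion in this experiment. The 3 LBP-treated and 3 PBS-treated samples were each hybridised to a GeneChip mouse whole-transcript array, and the values are log2 intensities. The methods speak of separate groups of 3 mice without saying outright whether an array pools mice. The p-values therefore set group differences against the spread between these samples. If the samples are pools, that is not the spread between mice. The treatment protocol deposited with the PBS samples mentions LBP alone. The titles and treatment labels, which give PBS, were followed.

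Adult sensory neurons regrow a peripheral axon after a nerve lesion, and this growth draws on a set of genes that the lesion turns on. Gap43 and Basp1 encode acylated proteins of the inner growth cone membrane that bind phosphoinositides and act on actin. Stathmins bind tubulin dimers and control how fast microtubules grow and shrink, beta tubulins form the microtubule together with alpha tubulins, and proteins of the TPPP family bind and bundle microtubules. Sprr1a, best known from the cornified envelope of the skin, is absent or low in uninjured sensory neurons and is strongly induced by axotomy. Arg1 encodes arginase 1, which makes the ornithine from which polyamines are formed, and Gadd45a encodes a stress protein that responds to DNA damage and, in DRGs, to nerve injury.

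After 13 days of LBP, 9 of the 10 genes had LBP and PBS values that overlapped. Tppp3 was the exception, and its LBP values all lay above its PBS values. It was also the 1 gene of the 10 with an unadjusted p under 0.05 from limma, a share of 10% against 4.72% of all genes tested, and without overlap there were 1 of these 10 genes and 9.63% of all genes. With 10 genes, 1 is the smallest count above 0. Without LBP replicate 2 or PBS replicate 3 it was again Tppp3 alone, and without PBS replicate 1 it was Sprr1a alone. The count was 0 without LBP replicate 1, LBP replicate 3 or PBS replicate 2. At an adjusted p under 0.05 there were 0 of the 10 genes and 0.00812% of all genes, and the adjusted p was 1.00 for each of the 10. Log2 fold changes of LBP against PBS were positive for 5 genes and negative for 5. Their median was 0.00 (all genes: -0.00), and the median absolute change was 0.0546, against 0.0793 over all genes. Leaving out Tppp3 and Sprr1a, the other 8 genes changed by -0.10 to 0.13, and their 95% intervals lay within -0.37 and 0.41.

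**Figure D1:**
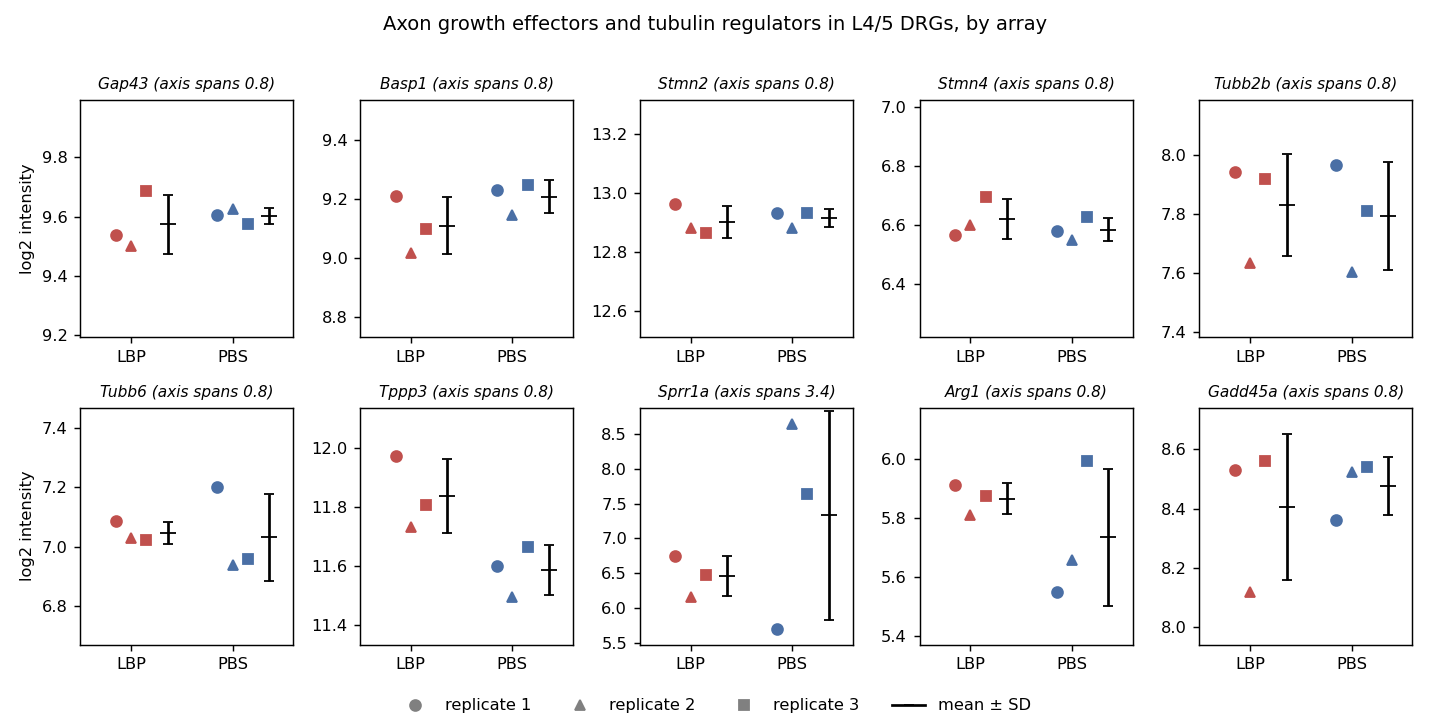
Log2 intensity (y axis) of each of the 10 genes on the 3 LBP-treated arrays (red) and the 3 PBS-treated arrays (blue), with black bars for the mean ± SD of each group. Axes span 0.8 log2 units except for Sprr1a (3.4), whose PBS values lie at 5.70, 8.65 and 7.64; the LBP values of Tppp3 (11.73 to 11.97) lie above its PBS values (11.50 to 11.67).

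The arrays were alike in scale, with medians of 6.45 to 6.46. All 15 markers of sensory neurons lay above the lower quartile of gene means, and limma gave 0 of them a p under 0.05 before adjustment. LBP replicate 2 stood apart: relative to the PBS mean, 10 markers of the central nervous system averaged 1.11 there, -0.02 to 0.04 on the other LBP arrays and -0.08 to 0.05 on the PBS arrays. The 9 Schwann cell and myelin markers averaged 0.39 on LBP replicate 2 and lay between -0.22 and 0.06 elsewhere. Markers of other cell types also varied between arrays. The 8 skeletal muscle markers averaged 0.09, -1.33 and -0.48 on the LBP arrays, against 0.40, -0.97 and 0.57 on the PBS arrays, and all 8 had a negative change (median -0.45), 0 of them with an unadjusted p under 0.05. The 9 fibroblast markers averaged -0.48, -0.07 and -0.09 on the LBP arrays, against -0.15, 0.19 and -0.04 on the PBS arrays, with 8 negative changes and 2 lower at that p. The 7 satellite glia markers averaged -0.00, 0.08 and 0.09 on the LBP arrays, against -0.05, 0.05 and 0.01 on the PBS arrays. Of their changes (-0.30 to 0.49), 4 were positive and 3 negative, and 2 were higher at that p. Over all genes, 2.07% were higher and 2.65% lower at that p. The part of the cell makeup in the values of the 10 genes was not tested. The 10 genes were not high on LBP replicate 2: 8 of them were below their own mean over the 6 arrays. Within the LBP group it gave the lowest value of Gap43, Basp1, Tubb2b, Tppp3, Sprr1a, Arg1 and Gadd45a. Values without it are therefore given beside each gene. In whole ganglia, fewer cells of a type and less RNA per cell cannot be told apart.

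Gap43 and Basp1, the growth cone proteins, did not differ beyond the spread between arrays. Log2 intensity of Gap43 was 9.54, 9.50 and 9.69 in LBP-treated DRGs, against 9.61, 9.63 and 9.57 in PBS-treated DRGs. The LBP values lay on both sides of the PBS values, which were the more tightly grouped. The log2 fold change of Gap43 was -0.03 (95% interval -0.24 to 0.19, p = 0.777 from limma, exact permutation p = 0.7), and 0.01 without LBP replicate 2. Basp1 was at 9.21, 9.02 and 9.10 in LBP-treated DRGs, against 9.23, 9.14 and 9.25 in PBS-treated DRGs. LBP replicates 2 and 3 were below all PBS values of Basp1, and LBP replicate 1 lay among them. Its change was -0.10 (95% interval -0.32 to 0.12, p = 0.337 from limma, exact permutation p = 0.2) and, without LBP replicate 2, -0.05. Side by side, the intervals of Gap43 and Basp1 overlap over most of their length.

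Of the 10 genes, the stathmins varied least. Stmn2, a neuronal stathmin that is abundant in sensory neurons, was at 12.96, 12.88 and 12.86 in LBP-treated DRGs, against 12.93, 12.88 and 12.93 in PBS-treated DRGs. Its pooled SD within groups was 0.0431, smaller than that of all but 2.03% of genes. Stmn2 lies near the top of the scale (highest value 13.75), and some arrays hold identical values. LBP replicate 2 equals PBS replicate 2, and PBS replicate 1 equals PBS replicate 3. Quantile normalisation gives the arrays a common distribution, and its part in this small spread was not tested. The log2 fold change was -0.01 (95% interval -0.22 to 0.19, p = 0.891 from limma, exact permutation p = 0.9). Stmn4, a neural stathmin, was at 6.56, 6.60 and 6.70 in LBP-treated DRGs, against 6.58, 6.55 and 6.63 in PBS-treated DRGs. The groups of Stmn4 overlapped, with LBP replicate 3 the highest array and PBS replicate 2 the lowest. Its change was 0.04 (95% interval -0.17 to 0.24, p = 0.710 from limma, exact permutation p = 0.6). Without LBP replicate 2 the changes were -0.00 for Stmn2 and 0.05 for Stmn4. Of the other members of the family, Stmn1 changed by 0.10 (95% interval -0.11 to 0.32) and Stmn3 by 0.00 (95% interval -0.21 to 0.21), and 0 of the 4 stathmins had an unadjusted p under 0.05.

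The beta tubulins differed more between arrays of a group than between the groups. Tubb2b, a beta tubulin of growing neurons, was at 7.94, 7.63 and 7.92 in LBP-treated DRGs, against 7.97, 7.60 and 7.81 in PBS-treated DRGs. In each group replicate 2 was lowest, by about as much, and the change was 0.04 (95% interval -0.25 to 0.32, p = 0.772 from limma, exact permutation p = 0.8), and 0.14 without LBP replicate 2. Tubb6, a beta tubulin of many tissues that rises after nerve injury, was at 7.09, 7.03 and 7.02 in LBP-treated DRGs, against 7.20, 6.94 and 6.96 in PBS-treated DRGs. All LBP values of Tubb6 lay inside the range of its PBS values. Its change was 0.01 (95% interval -0.22 to 0.25, p = 0.894 from limma, exact permutation p = 1.0), and 0.02 without LBP replicate 2. Tubb2a and Tubb2b are near-identical copies and may share probes, and the probes were not examined.

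None of the other tubulins passed the test. Among 16 alpha and beta tubulins, 10 changes were positive and 6 negative, the median was 0.02, and 0 had an unadjusted p under 0.05. The 6 other beta tubulins (Tubb1, Tubb2a, Tubb3, Tubb4a, Tubb4b and Tubb5) changed by -0.03 to 0.06. The 8 alpha tubulins ranged from -0.28 for Tuba3b to 0.23 for Tuba1c, both near the lower quartile of intensities. The mean of the 16 tubulins followed that of the 15 sensory neuron markers from array to array, although the lists share no gene. Relative to the PBS mean, the tubulins averaged 0.07, 0.02 and -0.05 on the LBP arrays, against 0.07, -0.10 and 0.03 on the PBS arrays. The neuron markers averaged 0.07, 0.01 and -0.05 on the LBP arrays, against 0.07, -0.08 and 0.01 on the PBS arrays. Tubb2b left this pattern on LBP replicates 2 and 3. The part of the neuron content in the values of single tubulins was not tested.

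**Figure D2:**
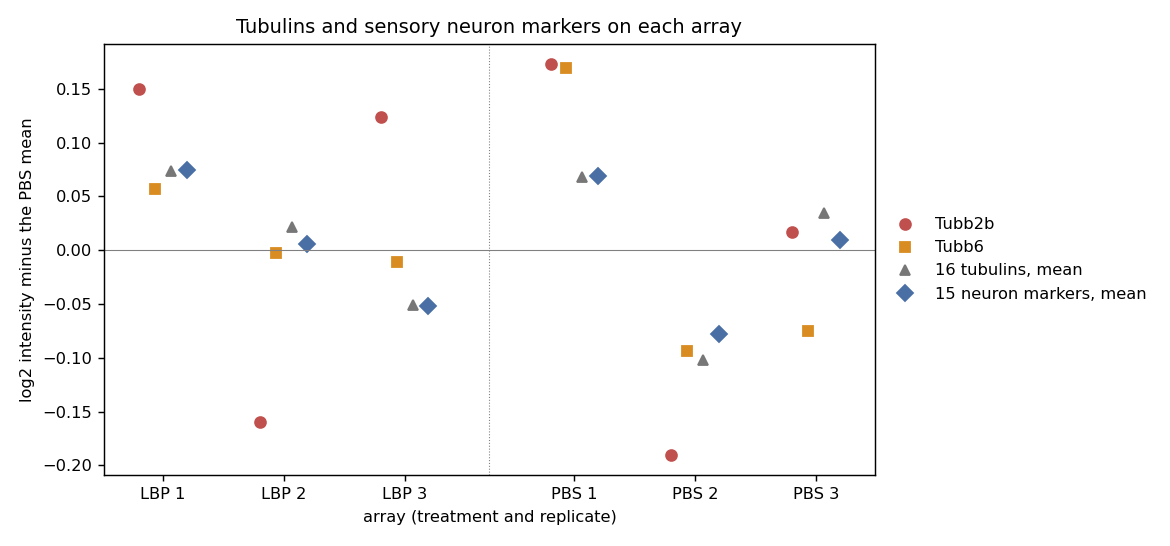
Log2 intensity minus the PBS mean (y axis) on each array (x axis) for Tubb2b, Tubb6, the mean of 16 tubulins and the mean of 15 sensory neuron markers. PBS replicate 2 is low for all of them (-0.10 for the tubulins and -0.08 for the markers), and Tubb2b is also low on LBP replicate 2.

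Tppp3 was higher in LBP-treated DRGs. The protein it encodes binds tubulin and bundles microtubules. Log2 intensity was 11.97, 11.73 and 11.81 in LBP-treated DRGs, against 11.60, 11.50 and 11.67 in PBS-treated DRGs. The lowest LBP array, replicate 2, stood just above the highest PBS array, replicate 3. The difference of 0.25 on the log2 scale is 1.19-fold (95% interval 1.01 to 1.40, p = 0.0382 and adjusted p = 1.00 from limma), and the exact two-sided permutation p was 0.1, the smallest that 3 arrays against 3 allow. Higher genes with an unadjusted p under 0.05 were 2.07% of all genes, and 4.35% had LBP values that all lay above the PBS values. Without LBP replicate 2 the change was 0.30, and limma's p stayed under 0.05. It did not when LBP replicate 1 (leaving a change of 0.18), LBP replicate 3 (0.26), PBS replicate 1 (0.26) or PBS replicate 2 (0.20) was left out. The study reported Tppp3 as induced by LBP, within a co-expression module of these samples, so that its direction is not independent evidence.

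Its relative Tppp went the other way. Tppp encodes the founding protein of the family, which is found chiefly in myelinating glia of the brain. It was at 6.93, 7.07 and 6.96 in LBP-treated DRGs, against 7.39, 7.26 and 7.20 in PBS-treated DRGs. All LBP values of Tppp lay under all its PBS values, and its log2 fold change was -0.30 (95% interval -0.52 to -0.08, p = 0.0132 from limma, exact permutation p = 0.1). Of the 6 fits that left out an array, 5 gave Tppp an unadjusted p under 0.05 and the fit without PBS replicate 1 did not (a change of -0.25). Without LBP replicate 2 the change of Tppp was -0.34. Tppp2 changed by -0.07 (95% interval -0.30 to 0.17). Across all genes, 2.65% were lower with an unadjusted p under 0.05 and 5.28% had LBP values that all lay under the PBS values. Of the 3 family members 0 passed the adjustment (lowest adjusted p = 0.999 from limma). Whether the changes of Tppp3 and Tppp differ was not tested.

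**Figure D3:**
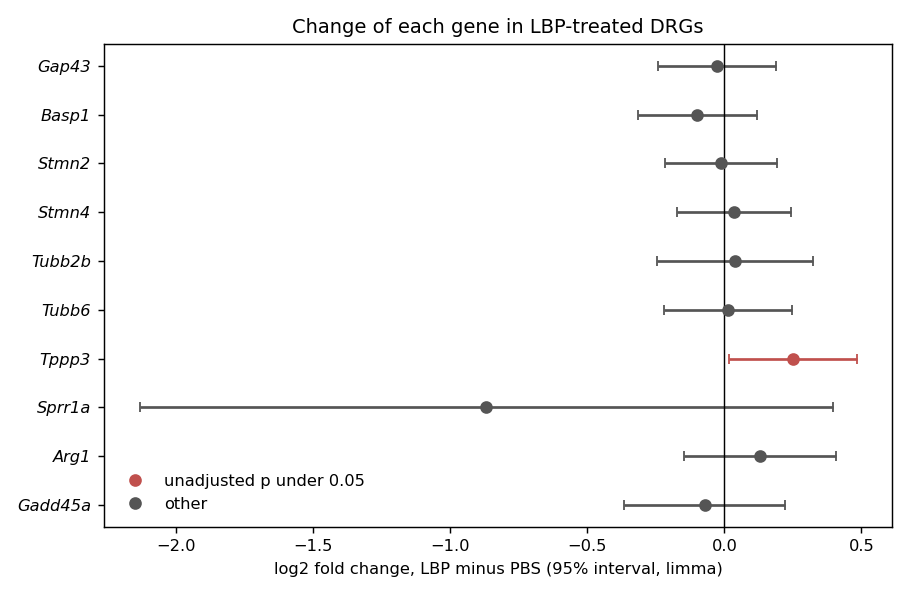
Log2 fold change of LBP against PBS (x axis) for each of the 10 genes, with 95% intervals from limma. The interval of Tppp3 (red, 0.25) excludes 0, that of Sprr1a (-0.87) spans -2.13 to 0.40, and the other 8 changes lie between -0.10 and 0.13.

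Sprr1a varied more than any other of the 10 genes, and it did so among PBS-treated DRGs. Log2 intensity was 6.75, 6.16 and 6.47 in LBP-treated DRGs, against 5.70, 8.65 and 7.64 in PBS-treated DRGs. PBS replicate 1 lay under every LBP array and PBS replicates 2 and 3 lay above every LBP array. PBS replicate 2 was 7.71-fold and PBS replicate 3 3.83-fold above PBS replicate 1. The rise from PBS replicate 1 to PBS replicate 2 was the largest rise among all 24623 genes, and it was not compared with the size of falls. The pooled SD of 1.08 ranked 17 among all genes.

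The mean of Sprr1a was 6.46 ± 0.29 with LBP, against 7.33 ± 1.50 with PBS (SD, n = 3 each). The log2 fold change was -0.87 (95% interval -2.13 to 0.40, p = 0.156 from limma), or 0.547-fold (95% interval 0.228 to 1.32), and the exact permutation p was 0.4. It rested on single PBS arrays: without PBS replicate 1 the change was -1.68, with an unadjusted p under 0.05 and an adjusted p = 0.412 from limma, and without PBS replicate 2 it was -0.21. Without LBP replicate 2 it was -0.72.

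The bases before the gene's start differ in kind between Sprr1a and Basp1. A promoter window was at hand for 3 of the 10 genes (Sprr1a, Basp1 and Gadd45a), from RefSeq with build GRCm38.p6. The Sprr1a window, with the widest spread between arrays, is shown together with that of Basp1, with a narrow spread (pooled SD 0.0784). Both run 5′ to 3′ over the 250 bases before the gene's start on the minus strand. They lie at chr3:92485882-92486131 for Sprr1a and chr15:25413765-25414014 for Basp1. Capitals mark matches to TGANTCA (the AP-1 motif, bound by Jun, Fos and ATF proteins), TATAAA (the core promoter box of that name) and GGGCGG (the GC box), searched on both strands.
Sprr1a: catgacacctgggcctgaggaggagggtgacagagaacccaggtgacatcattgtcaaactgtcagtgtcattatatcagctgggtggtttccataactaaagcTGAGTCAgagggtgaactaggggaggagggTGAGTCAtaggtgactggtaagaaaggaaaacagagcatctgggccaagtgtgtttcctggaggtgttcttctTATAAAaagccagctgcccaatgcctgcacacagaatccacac
Basp1: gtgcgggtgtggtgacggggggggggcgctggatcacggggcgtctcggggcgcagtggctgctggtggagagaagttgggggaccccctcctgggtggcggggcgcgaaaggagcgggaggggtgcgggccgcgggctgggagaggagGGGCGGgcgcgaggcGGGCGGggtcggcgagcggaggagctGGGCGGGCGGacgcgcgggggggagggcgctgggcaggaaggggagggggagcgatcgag
Sprr1a has 2 AP-1 matches, which begin 146 and 116 bases before the start, and a TATAAA match at 43 bases. Among 32851 promoter windows of the same length, 6.75% hold an AP-1 match, 0.338% hold 2 or more and 12.4% hold TATAAA. Basp1 holds neither of these motifs. It has 4 GC boxes, at 101, 86, 60 and 56 bases, the last pair overlapping, where 32.7% of windows have any and 16.7% have 2 or more. The GC content was 49.6% for Sprr1a and 78.8% for Basp1, against a median of 52.4%. The Gadd45a window had 1 GC box, no AP-1 match and no TATAAA, and the pooled SD of Gadd45a was 0.188, larger than that of 75.5% of genes. Whether the motifs go with the spread between arrays was not tested. A match describes the letters and shows no binding.

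Markers of the epidermis, where Sprr1a is best known, and of neutrophils were read on the same arrays. The 8 epidermal markers (such as Krt5, Krt14, Ivl and Lor), of which 6 lay above the lower quartile of gene means, averaged -0.10 to 0.03 on the LBP arrays and -0.07 to 0.08 on the PBS arrays, relative to the PBS mean. They were highest on PBS replicate 1, where Sprr1a was lowest. The 9 neutrophil and bone marrow markers averaged -0.27, -0.31 and 0.04 on the LBP arrays, against -0.41, 0.25 and 0.16 on the PBS arrays. Among PBS arrays the mean of these markers was thus in the same order as Sprr1a, with Ngp 2.23-fold and Lcn2 2.27-fold higher on replicate 2 than on replicate 1. Not every marker kept that order: Retnlg was 1.65-fold above replicate 1 on replicate 2 and 1.69-fold on replicate 3. On the LBP arrays both the marker mean and Sprr1a were lowest on replicate 2. There the marker mean was highest on replicate 3, and Sprr1a on replicate 1. The part of these markers in the spread of Sprr1a was not tested. Atf3, a transcription factor of injured neurons, was at 7.61, 7.34 and 7.70 in LBP-treated DRGs, against 7.31, 7.62 and 7.57 in PBS-treated DRGs. Its PBS values had the same order as those of Sprr1a, with replicate 2 1.24-fold and replicate 3 1.20-fold above replicate 1. The LBP values did not: both genes were lowest on replicate 2, but Atf3 was highest on replicate 3 and Sprr1a on replicate 1. Whether the 2 genes vary together was not tested.

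**Figure D4:**
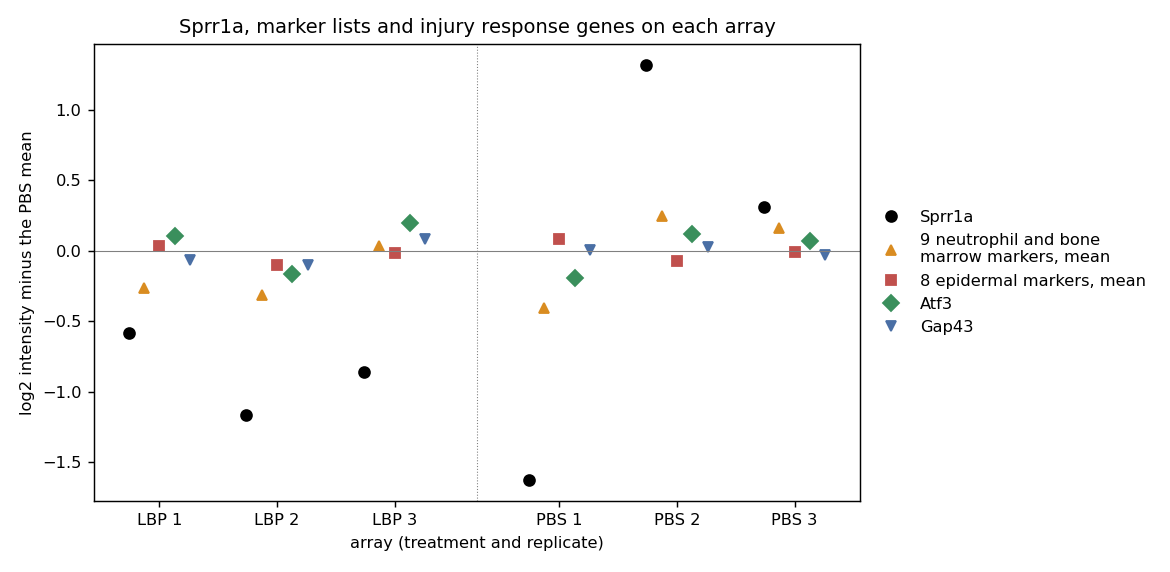
Log2 intensity minus the PBS mean (y axis) on each array (x axis) for Sprr1a, Atf3, Gap43 and the means of 9 neutrophil and bone marrow markers and 8 epidermal markers. Sprr1a is low on PBS replicate 1 (5.70) and high on PBS replicate 2 (8.65), where the neutrophil means are -0.41 and 0.25, and the epidermal means are 0.08 and -0.07.

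The other small proline-rich protein genes varied less: over the 6 arrays Sprr1a spanned 2.95 on the log2 scale, and Sprr2h, the next in the family, 0.79. Of 15 measured family members, 7 lay above the lower quartile of gene means, 5 changes were positive and 10 negative, and 0 had an unadjusted p under 0.05. Sprr1b, the nearest relative, was dim, with 4.84, 4.67 and 4.78 in LBP-treated DRGs, against 4.88, 4.94 and 5.19 in PBS-treated DRGs. The copies of the Sprr2 cluster may share probes.

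Arg1 and Gadd45a overlapped between the groups. Arg1 was at 5.91, 5.81 and 5.87 in LBP-treated DRGs, against 5.55, 5.66 and 5.99 in PBS-treated DRGs. The LBP values lay together between the second and the highest PBS value. Its change was 0.13 (95% interval -0.15 to 0.41, p = 0.317 from limma, exact permutation p = 0.4), and 0.16 without LBP replicate 2. The study reported Arg1 too as a regeneration-associated gene induced by LBP, within a co-expression module of these samples. The interval here includes 0. Arg2, the mitochondrial arginase, changed by 0.14 (95% interval -0.23 to 0.51). Macrophages can also express Arg1, and their 11 markers averaged -0.23 to 0.12 on the LBP arrays and -0.19 to 0.20 on the PBS arrays, relative to the PBS mean.

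Gadd45a was at 8.53, 8.12 and 8.56 in LBP-treated DRGs, against 8.36, 8.52 and 8.54 in PBS-treated DRGs. LBP replicate 2 was the lowest array and PBS replicate 1 the next lowest, and the groups overlapped. The change was -0.07 (95% interval -0.37 to 0.22, p = 0.601 from limma, exact permutation p = 0.9), and without LBP replicate 2 it was 0.07. Its relatives Gadd45b and Gadd45g changed by 0.02 and -0.02.

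Around the 10 genes, 154 further genes of the same families and pathways were read in 10 lists, and limma gave 7 (4.55%) an unadjusted p under 0.05, against 4.72% of all genes. Of these, 1 was higher and 6 were lower, and 0 passed the adjustment (lowest adjusted p = 0.880 from limma). Medians of the lists lay between -0.07 for the 3 TPPP genes and 0.03 for 24 tubulin-modifying enzymes, chaperones and severing proteins.

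Among 20 growth cone membrane and actin proteins, Marcks, a membrane protein related in function to Gap43 and Basp1, was lower. It was at 9.13, 8.93 and 9.15 in LBP-treated DRGs, against 9.44, 9.36 and 9.25 in PBS-treated DRGs, and the groups did not overlap. Its change was -0.28 (95% interval -0.51 to -0.04, p = 0.0243 from limma, exact permutation p = 0.1). Limma's p was over 0.05 when LBP replicate 2, PBS replicate 1 or PBS replicate 2 was left out (changes of -0.21, -0.23 and -0.27). Of 26 microtubule-associated and plus-end proteins, 14 changes were positive and 12 negative. Crmp1, a tubulin-binding protein of growth cone collapse signalling, was lower, at 10.55, 10.72 and 10.38 in LBP-treated DRGs, against 10.85, 10.80 and 10.78 in PBS-treated DRGs. Its change was -0.26 (p = 0.0409 from limma, exact permutation p = 0.1). Of the 6 fits with an array left out, the 1 without LBP replicate 2 kept an unadjusted p under 0.05 for Crmp1. The largest change of the 24 tubulin-modifying genes was that of the carboxypeptidase gene Agbl5 (-0.29, p = 0.0691 from limma, exact permutation p = 0.3).

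Nos1, a nitric oxide synthase that competes with arginase for arginine, was the 1 gene of 20 arginine and polyamine enzymes with an unadjusted p under 0.05. It was at 6.37, 6.28 and 6.11 in LBP-treated DRGs, against 6.82, 6.69 and 6.37 in PBS-treated DRGs, a change of -0.37 (p = 0.0181 from limma, exact permutation p = 0.1). The highest LBP value of Nos1 all but touched the lowest PBS value, and limma's p was over 0.05 when LBP replicate 3, PBS replicate 1 or PBS replicate 2 was left out (changes of -0.30, -0.27 and -0.34). Of 14 genes of the GADD45 family and the p53 response, 0 had an unadjusted p under 0.05, and the largest change was 0.23 for the stress gene Sesn1. Of 22 nerve injury response genes, 10 changes were positive and 12 negative. The neuropeptide genes Crh (0.24) and Gal (-0.54) and the AP-1 gene Jun (-0.27) had an unadjusted p under 0.05 (3 of 22, against 4.72% of all genes), which Crh lost without LBP replicate 1, LBP replicate 3, PBS replicate 1 or PBS replicate 3 and Jun without PBS replicate 2. LBP and PBS values did not overlap for 7 of the 22 (3 higher and 4 lower), against 9.63% of all genes, and 0 of the 22 passed the adjustment.

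**Figure D5:**
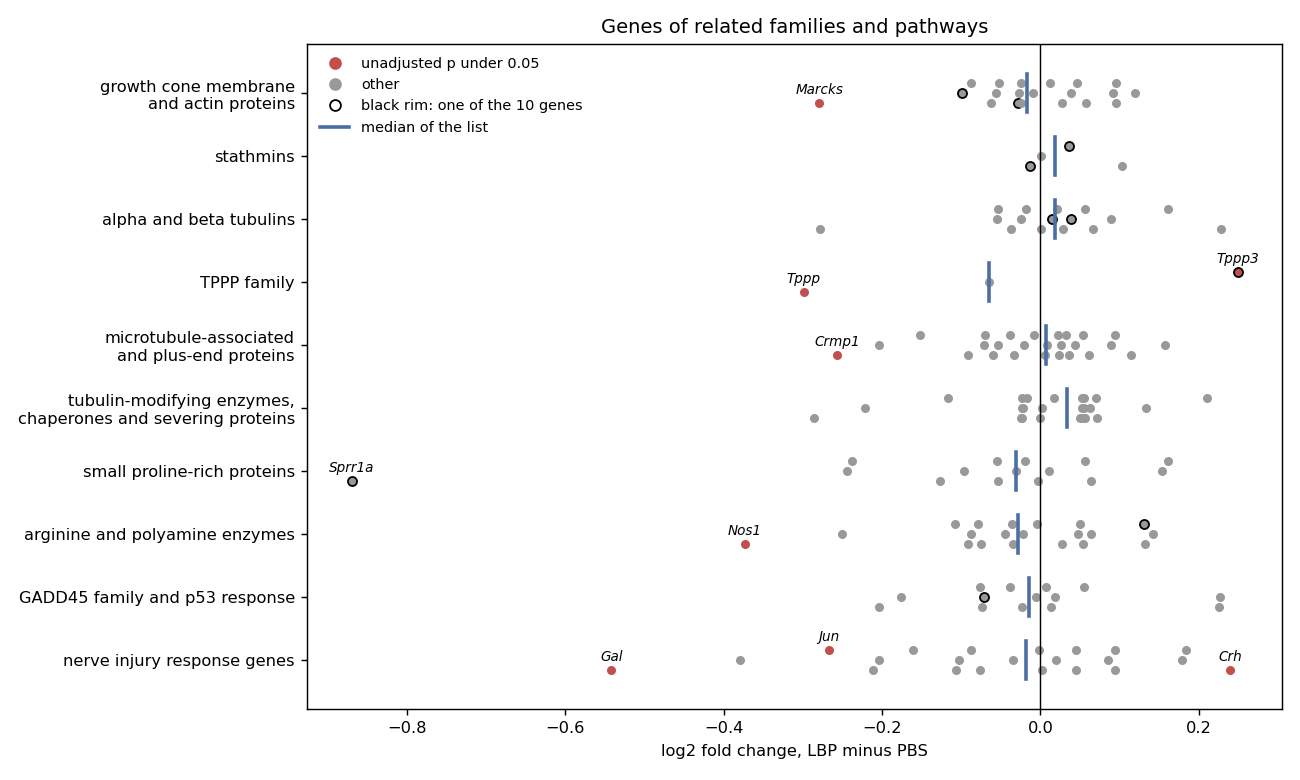
Log2 fold change of LBP against PBS (x axis) of every gene in 10 lists of related families and pathways (y axis), with the median of each list in blue, genes with an unadjusted p under 0.05 in red and the 10 genes rimmed in black. The list medians lie between -0.07 and 0.03, and the labels name the genes in red and Sprr1a.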

How the data were processed

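L4/5 DRGs of LBP- and PBS-treated mice were measured on 3 arrays per group. The authors imported the arrays into R and summarised probes with the expresso function and MAS5. They quantile normalised the data and deposited log2 intensities with a value per gene symbol and array. Their methods give a rule for omitting outlier arrays by correlation between samples, without saying whether any array met it. The genome build and tool versions of that processing were not given in the sources used here. MAS5 and quantile normalisation force the arrays to a common distribution, so that a shift of all genes cannot be seen. The deposited columns of fold changes and p-values, 3 of them comparing single arrays, hold the authors' comparisons and were not used.

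Of 24647 genes, 24 whose symbols had become dates were dropped, and the remaining 24623 went into the lmFit and eBayes fit of limma 3.58.1 (R 4.3.3), two-sided, treatment as the single factor, Benjamini-Hochberg adjustment over all genes, and a prior of 5.90 degrees of freedom. Beside it stand exact two-sided permutation tests over the 20 splits. The code was tested on simulated data. The number of arrays limits the precision. Since probes differ, intensities of different genes were set against each other only to call a gene dim, by the lower quartile of gene means.

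The members, the gene lists and the tests were chosen with earlier results of these data known. All 10 genes were named, together with relatives of the stathmin, beta tubulin, TPPP, GADD45 and arginase families and, from each related list, genes with an unadjusted p under 0.05 or else the largest change. Tuba1c, Sprr1b, Sprr2h, Atf3, Ngp, Lcn2 and the marker genes given as examples fall outside this rule and were named after their values were seen. Of 269 list entries, 8 were found under older symbols through RefSeq synonyms and 1 (Sprr2a3) was not matched. Promoter windows were read from a RefSeq table (GRCm38.p6), with motif matches sought on both strands. Alternatives covered the replicate block, scaling, dim genes, the prior variance, array weights and leaving out each array.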

Additional observations from a re-analysis of the deposited data

How the results depend on the processing

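Over 8 alternatives (replicate block, arrays centred on a common median, quantile normalisation repeated, sensory neuron markers set equal, dim genes left out, intensity trend, robust prior, array weights) all 10 genes kept their direction, and Tppp3 alone had an unadjusted p under 0.05 in each (log2 fold change 0.24 to 0.26, p 0.0151 to 0.0430 from limma). Genes with an adjusted p under 0.05 numbered 2 in all. They were 4 with the replicate block, 4 without dim genes, 4 with the trend, 4 with the robust prior, 4 with array weights and 1 with neuron markers set equal, and 1 to 2 with an array left out.

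Deviations of same-numbered arrays correlated at 0.109, -0.0348 and 0.0836, and those of other pairs at -0.243 to 0.172. Of the LBP arrays only replicate 1 correlated best with its own number, and of the PBS arrays only replicate 3. With 3 arrays per group, these values cannot decide whether same-numbered arrays were handled together. Under the replicate block 1 of the 10 genes had an unadjusted p under 0.05, and their median change was 0.00. Crh lost its p under the block (0.0529) and with neuron markers set equal (0.0625), and Nos1 with array weights (0.0832).

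With an array left out, 0 to 1 of the 10 genes had an unadjusted p under 0.05 (0 without LBP replicate 1, LBP replicate 3 or PBS replicate 2), and the median lay between -0.03 and 0.03. Without PBS replicate 1, Sprr1a took the place of Tppp3. Small changes turned sign. Tubb2b ranged from -0.057 to 0.14 and was negative without LBP replicate 1 (-0.018), LBP replicate 3 (-0.0050) or PBS replicate 2. Tubb6 ranged from -0.033 to 0.099 and was negative without LBP replicate 1 (-0.0067), PBS replicate 2 or PBS replicate 3 (-0.023). Gap43 ranged from -0.084 to 0.0095, Gadd45a from -0.15 to 0.071, Stmn2 from -0.043 to 0.0063 and Stmn4 from -0.0020 to 0.063. The cause was not tested. Basp1 (-0.15 to -0.05), Arg1 (0.04 to 0.26), Tppp3 (0.18 to 0.30) and Sprr1a (-1.68 to -0.21) kept their direction. With 3 arrays per group and limma's prior variance, intervals of the steadiest genes still reach about 0.2 to either side on the log2 scale.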
